A study of Mus musculus with 6 samples.

Results

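The chemokine receptor gene Cxcr3 and the genes of its 3 interferon-inducible ligands, Cxcl9, Cxcl10 and Cxcl11, are described here across 6 mouse melanomas. The 4 genes were selected by their symbols from the 55536 genes counted in each tumor, and each symbol occurred once. They were put together from differences between the tumor groups that were already known in these data, in which Cxcl9 and Cxcl10 lay on opposite sides. Their differences between the groups are therefore given as a description, and the calls of the fits across all genes are counted once, beside the share of all genes called.

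The tumors were grown under the skin of C57BL/6J mice from about 100000 B16 cells, a melanoma line of that strain, and were taken on day 13. Of these, 3 grew from cells carrying a vector control and 3 from cells labelled as knockouts of ATM, a kinase activated by breaks in DNA. They are called control and knockout tumors here, after those labels. The labels give neither the means of knockout nor whether the cells were a clone, and the host's own Atm is not stated to be altered. Nothing states that each tumor came from its own mouse. The tumors of a group may therefore not be independent, and the SDs, SEs and p-values given here may be too small. Atm RNA, from gene-wide counts that do not show an edited site, did not set the labels apart, at 95.5 to 111 CPM (the count relative to library size, scaled by TMM) in control and 97.2 to 132 CPM in knockout tumors. The directions given below therefore rest on the labels. Each library held between 22101124 and 29037715 counts on genes. The melanocyte markers Tyr, Tyrp1, Dct, Pmel, Mlana, Mitf and Sox10 averaged 10.6 to 11.1 log2 CPM in every tumor. Of 6 keratinocyte markers Krt5, Krt14 and Krt1 had 0 counts in all 6 tumors, Krt10 had 0 to 4, Trp63 3 to 26 and Dsp, a desmosome gene, 17 to 74. Control tumor 1 stood apart, with fibroblast markers at 3.43 log2 CPM against 6.05 to 7.18 in the other 5 tumors, and monocyte and macrophage markers at 5.28 against 6.25 to 6.86.

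CXCR3 is a G protein-coupled receptor of activated CD8 T cells, type 1 helper T cells and NK cells, and its ligands draw these cells into inflamed tissue and tumors. Interferon gamma is the leading inducer of Cxcl9, which is made mostly by macrophages and dendritic cells, whereas Cxcl10 also responds directly to type I interferon and to NF-kB. Cxcl11 binds CXCR3 most tightly, but in C57BL/6 mice a frameshift prevents its protein from being made, and GENCODE M21 lists the gene as a polymorphic pseudogene.

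The 3 ligand genes lie side by side on the minus strand of chromosome 5 (GRCm38): Cxcl9 at chr5:92321347-92328079, Cxcl10 at chr5:92346638-92348889 and Cxcl11 at chr5:92359544-92365485. The annotated start of Cxcl9 is 20.8 kb from that of Cxcl10, and those of Cxcl10 and Cxcl11 are 16.6 kb apart. Cxcr3 lies apart from them, at chrX:101731535-101734269. The 250 bases upstream of the start of Cxcl10 and of Cxcl9 are shown because these neighboring genes took different levels in the same tumors; both sequences are from RefSeq (GRCm38.p6, minus strand, chr5:92348890-92349139 and chr5:92328080-92328329), read 5′ to 3′, with matches to the interferon-stimulated response element (where type I interferon signals act) and to the NF-kB consensus in capitals.

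Cxcl10: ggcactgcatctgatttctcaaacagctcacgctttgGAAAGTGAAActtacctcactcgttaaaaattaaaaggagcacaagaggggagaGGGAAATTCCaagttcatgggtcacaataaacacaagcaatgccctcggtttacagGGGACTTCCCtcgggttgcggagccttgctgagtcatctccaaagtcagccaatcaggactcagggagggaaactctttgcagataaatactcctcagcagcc

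Cxcl9: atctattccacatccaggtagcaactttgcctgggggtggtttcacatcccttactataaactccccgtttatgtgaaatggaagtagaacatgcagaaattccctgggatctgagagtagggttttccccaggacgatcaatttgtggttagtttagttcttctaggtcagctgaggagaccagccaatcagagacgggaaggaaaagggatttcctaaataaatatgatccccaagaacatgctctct

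Upstream of Cxcl10 the response element, searched on both strands as GAAA, any 2 bases and GAAA, matched once at positions -213 to -204 from the start. The NF-kB consensus matched there at -159 to -150 and at -103 to -94, and no match overlapped another. Neither motif matched in the window of Cxcl9. The interferon gamma-activated site, searched as TTCNNNGAA on both strands, matched in neither window. The table held 3 of the 4 members, and the window of Cxcr3 is not described because it overlaps the gene as GENCODE places it. Over 32851 windows of the same length in the table, 2.98% held the response element, 3.90% the NF-kB consensus and 7.02% the gamma-activated site. A match to letters is not a bound site, and the tumors hold no measurement of binding. Sites that depart from the letters searched are missed, so a window without a match may still hold such an element.

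Cxcl10 was lower in every knockout tumor than in any control tumor. Control tumors 1, 2 and 3 held 298, 179 and 242 CPM, and knockout tumors 1, 2 and 3 held 139, 120 and 103 CPM. The means were 239 ± 59.7 and 121 ± 18.3 CPM (SD, n = 3 per group), which gave a log2 fold change of -0.99 ± 0.21 (SE of the edgeR fit), knockout minus control. The highest value came from control tumor 1, and without that tumor the log2 fold change was -0.80. The counts behind these levels were 3004 to 6737 per tumor, so counting error is small beside the spread between tumors.

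Cxcl9 had the opposite order, with every knockout tumor above every control tumor. Its level was 156, 134 and 142 CPM for control tumors 1, 2 and 3, against 234, 178 and 164 CPM for knockout tumors 1, 2 and 3. The means were 144 ± 11.2 and 192 ± 37.2 CPM (SD, n = 3 per group), which gave a log2 fold change of 0.41 ± 0.14 (SE). Knockout tumor 1 was the highest, and without it the log2 fold change was 0.25. In bulk tumor RNA, fewer cells making a transcript and less of it per cell cannot be told apart, which holds for every level given here.

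Cxcl11 was read at 2.12, 2.10 and 1.66 CPM in control tumors 1, 2 and 3, against 1.68, 1.25 and 1.61 CPM for the knockout tumors in that order. The groups overlapped, and their means were 1.96 ± 0.264 and 1.51 ± 0.229 CPM (SD, n = 3 per group; log2 fold change -0.37 ± 0.24, SE). Only 35 to 48 counts stood behind each value. Of the 3794 exonic bases of Cxcl11, 1582 are shared with Gm2673, a processed pseudogene on the opposite strand. No source used here states whether HTSeq counted by strand, so reads from these bases may be missing from its counts. Gm2673 itself held no more than 0.0457 CPM in any tumor. For Cxcl10, 133 of 2252 exonic bases are shared with Art3, an ADP-ribosyltransferase gene that runs across Cxcl10 and Cxcl11 on the opposite strand; without strand, reads of these bases cannot be assigned.

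Cxcr3 overlapped between the groups and varied most within the controls. Control tumors 1, 2 and 3 held 1.72, 2.74 and 4.10 CPM, and knockout tumors 1, 2 and 3 held 4.10, 3.40 and 2.77 CPM, from 39 to 100 counts per tumor. The means were 2.86 ± 1.19 and 3.42 ± 0.665 CPM (SD, n = 3 per group; log2 fold change 0.26 ± 0.35, SE). Without control tumor 1, the lowest, the log2 fold change was 0.00012, and without control tumor 3 it was 0.63.

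**Figure D1:**
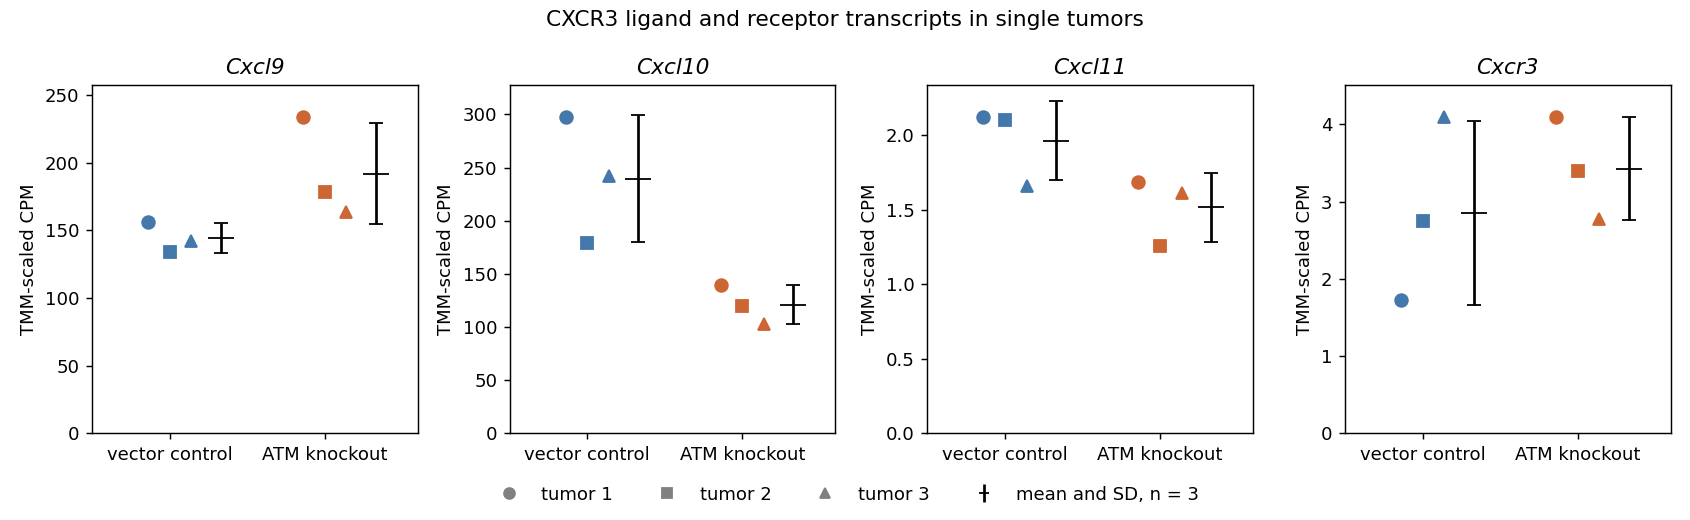
TMM-scaled CPM of Cxcl9, Cxcl10, Cxcl11 and Cxcr3 in each tumor, with the group mean and SD (n = 3) beside the points; axes start at 0 and differ between genes. Cxcl9 lies between 134 and 156 CPM in control and between 164 and 234 CPM in knockout tumors, Cxcl10 between 179 and 298 and between 103 and 139 CPM, while Cxcl11 and Cxcr3 overlap.

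Of the 4 members, all of which passed the filter on low counts, edgeR and limma-voom called none at an adjusted p below 0.05, against 4.96% of all 15696 genes tested in edgeR. At an unadjusted p below 0.05 in edgeR there were 2 members, against 23.0% of all genes, and 1 without control tumor 2 or without control tumor 3. DESeq2 called 1 member, Cxcl10, against 14.6% of all genes to which it gave an adjusted p. The CPM of the groups did not overlap for 2 of the 4 members, against 29.7% of all genes tested. Since the members were chosen with this contrast known, these counts carry no weight for or against them.

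Levels of different genes were compared as CPM per kilobase of merged exon. The merged exons of Cxcl10, 2252 bases over 4 annotated transcripts, cover its whole gene, so no part of it counted as intron. A shorter spliced transcript would raise Cxcl10 per kilobase in every tumor. With the lengths used, Cxcl10 led the members in the control tumors and Cxcl9 in the knockout tumors. Cxcl10 was at 106 ± 26.5 CPM per kb in control and 53.6 ± 8.14 in knockout tumors, and Cxcl9 at 47.8 ± 3.71 and 63.7 ± 12.3 CPM per kb (SD, n = 3 per group). The knockout means of the 2 ligands differed by less than the sum of their SDs, although Cxcl9 was above Cxcl10 in each of the 3 knockout tumors. Both ranked high among the genes tested. The level of Cxcl10 per kilobase exceeded that of 97.5% to 98.8% of tested genes in control tumors and of 94.4% to 96.4% in knockout tumors. For Cxcl9 these ranges were 94.1% to 95.0% and 95.6% to 97.5%.

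The receptor and the third ligand lay far below. Cxcr3 was at 1.65 ± 0.688 and 1.98 ± 0.384 CPM per kb and Cxcl11 at 0.517 ± 0.0696 and 0.399 ± 0.0604 CPM per kb in control and knockout tumors. When only exonic bases that Cxcl11 does not share were counted in its length, its levels were 0.886 ± 0.119 and 0.684 ± 0.104 CPM per kb, still below Cxcr3 in each of the 6 tumors. With every length used, the order of Cxcl9 and Cxcl10 within each tumor was the same. The lengths of Cxcl10 tried lay close together, at 2.12 to 2.25 kb, and a shorter spliced transcript was not tested. At 2.12 kb, without shared bases, Cxcl10 over Cxcl9 was 0.959 in knockout tumor 2.

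The ratio of 2 ligands in the same tumor needs no scaling between libraries. Per kilobase, Cxcl10 over Cxcl9 was 2.55, 1.78 and 2.28 for control tumors 1, 2 and 3. Knockout tumors 1, 2 and 3 gave 0.797, 0.902 and 0.841. Thus, with the exon lengths used, Cxcl10 exceeded Cxcl9 in every control tumor and Cxcl9 exceeded Cxcl10 in every knockout tumor. A shorter length of Cxcl10 would raise every ratio by the same factor, and the knockout ratios could then exceed 1. The difference between the groups on the log2 scale does not depend on the lengths. The mean log2 ratio was 1.12 ± 0.265 in control and -0.24 ± 0.0893 in knockout tumors (SD, n = 3 per group), a difference of -1.37 on the log2 scale, or a ratio 2.58-fold lower. Leaving out each tumor in turn gave differences between -1.51 and -1.25. The controls varied more in this ratio than the knockout tumors did, with control tumor 2 nearest to them.

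The shares of the ligand counts per kilobase depend on the same exon lengths. Cxcl9 made up 28.1%, 35.8% and 30.4% in control tumors 1, 2 and 3, against 55.5%, 52.4% and 54.1% for the knockout tumors in that order. The share of Cxcl10 was 68.2% ± 4.05 in control and 45.7% ± 1.54 in knockout tumors, and that of Cxcl11 was 0.343% ± 0.0890 and 0.344% ± 0.0690 (SD, n = 3 per group). The abundant ligands together overlapped between the groups, with Cxcl9 and Cxcl10 summing to 154 ± 30.1 CPM per kb in control and 117 ± 20.3 in knockout tumors. Against Cxcl11, Cxcl9 was 93.6 ± 13.7 times as high in control and 161 ± 28.4 times in knockout tumors, with no overlap. Cxcl10 was 208 ± 56.8 and 136 ± 27.1 times as high as Cxcl11, with overlap.

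**Figure D2:**
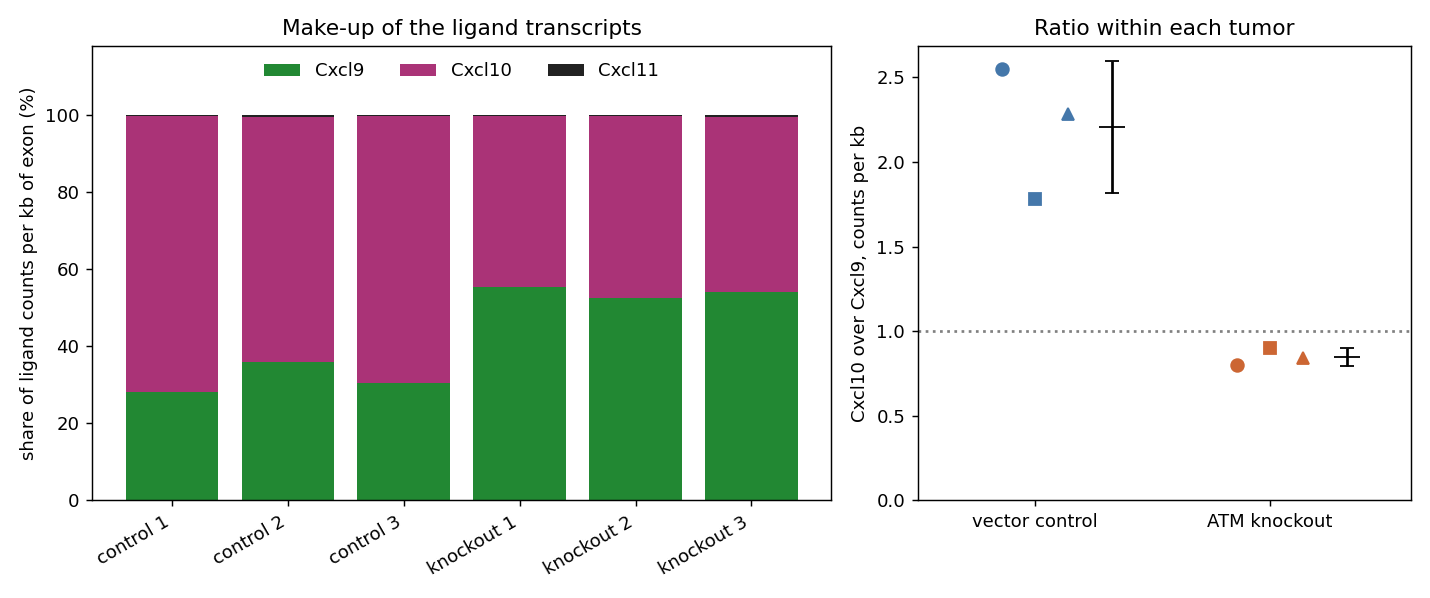
Left, share of each ligand in the ligand counts per kilobase of exon in each tumor (percent); right, Cxcl10 over Cxcl9 per kilobase in each tumor, with the group mean and SD (n = 3) and a dotted line at 1. All 3 control tumors lie above the line, between 1.78 and 2.55, and all 3 knockout tumors below it, between 0.797 and 0.902. Shares and the place of the points against the line depend on the exon lengths used.

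The pathways that induce the ligands were compared through gene lists. Of 15696 genes tested edgeR called 2.21% higher and 2.75% lower in knockout tumors, and the median log2 fold change was -0.0058, with 49.1% of genes positive. At an unadjusted p below 0.05 edgeR had 10.6% of all genes higher and 12.3% lower, and DESeq2 called 6.5% higher and 8.12% lower. The 347 higher and 431 lower edgeR calls became 504 and 356 with library size as the only scaling. In the interferon gamma signal edgeR and DESeq2 called none of 9 genes, none reached an unadjusted p below 0.05, and the median was -0.02. Ifng, the cytokine gene itself, was at 1.28 ± 0.591 and 2.13 ± 0.933 CPM in control and knockout tumors (edgeR adjusted p = 0.407).

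Among 14 tested genes of type I interferon and NF-kB signaling 1 fell in edgeR, against 2.75% of all genes called lower. This was Irf9, the DNA-binding subunit of the factor that occupies interferon-stimulated response elements. Irf9 was at 104, 90.8 and 96.7 CPM in control tumors 1, 2 and 3, against 64.3, 62.3 and 70.01 CPM for the knockout tumors in that order, with no overlap (log2 fold change -0.57 ± 0.08, edgeR adjusted p = 0.0237). The call ended without control tumor 2 (adjusted p = 0.0758) or 3 (0.0657) and without knockout tumor 1 (0.129) or 2 (0.104), with log2 fold changes between -0.61 and -0.51 whichever tumor was left out. The list's median was -0.07, and 3 members were lower with an unadjusted p below 0.05, the same 3 that DESeq2 called, against 12.3% and 8.12% of all genes. The other two were the receptor genes Ifnar2 (-0.39) and Ifnar1 (-0.24). The NF-kB genes Rela (0.04), Nfkb1 (-0.07) and Relb (-0.08) did not pass.

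Interferon-stimulated genes that are classically induced together with Cxcl10 had a negative log2 fold change in 10 of 10 tested members, with a median of -0.40. The level of the list overlapped between the groups, at 6.52 to 7.12 log2 CPM in control and 6.20 to 6.64 in knockout tumors. Only Ifi44 passed, falling from 80.4 ± 16.9 to 38.1 ± 7.40 CPM (-1.08 ± 0.19, edgeR adjusted p = 0.0396), against 2.75% of all genes called lower. DESeq2 likewise called 1, against 8.12% of all genes lower. The edgeR call of Ifi44 ended without a filter on low counts (adjusted p = 0.0551) and when any tumor other than control tumor 1 was left out (0.0583 to 0.159). Another 3 had an unadjusted p below 0.05, namely Cmpk2 (-0.35), Isg15 (-0.49) and Rsad2 (-0.50). These make 4 of 10 with Ifi44, against 12.3% of all genes lower at that threshold.

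Genes led by interferon gamma, as Cxcl9 is, had no called member among 12 in edgeR or DESeq2 and none with an unadjusted p below 0.05. Here 9 were positive and 3 negative, with a median of 0.09. Cd74, the invariant chain of MHC class II, was at 998 ± 184 and 1305 ± 262 CPM (log2 fold change 0.39 ± 0.20, adjusted p = 0.304). Gbp2, a guanylate-binding protein gene, was at 625 ± 121 and 802 ± 162 CPM (0.36 ± 0.20, adjusted p = 0.343). Whether these lists differ from one another was not tested.

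A list of ligand handling held another ligand, a peptidase, scavenging receptors and genes of receptor signaling. It gave no call among 10 genes in edgeR or DESeq2, and none had an unadjusted p below 0.05. Pf4, a platelet chemokine that also binds CXCR3, was at 17.0 ± 11.05 and 7.71 ± 4.15 CPM. Dpp4, the peptidase that trims and inactivates the ligands, was at 7.80 ± 5.30 and 6.99 ± 2.47 CPM. The scavenging receptor gene Gpr182 was under 1 CPM on average in both groups (0.885 and 0.343).

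Other chemokine genes of the CXC and CX3C families gave no edgeR call among 9 tested, with a median of -0.46 and 2 of 9 positive. Cxcl16, the ligand of CXCR6, was at 24.0 ± 2.04 and 30.3 ± 1.03 CPM (0.33 ± 0.09, edgeR adjusted p = 0.0888), was the single member at an unadjusted p below 0.05, and was called by DESeq2. Among 9 tested chemokine receptor genes of lymphocytes other than Cxcr3, edgeR and DESeq2 called none. Cxcr6, a receptor of tissue-homing T cells, was the 1 with an unadjusted p below 0.05, at 4.62 ± 0.560 and 9.16 ± 3.84 CPM (0.99 ± 0.34, adjusted p = 0.147). Over all genes 10.6% were higher at that threshold, and DESeq2 called 6.5% higher.

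**Figure D3:**
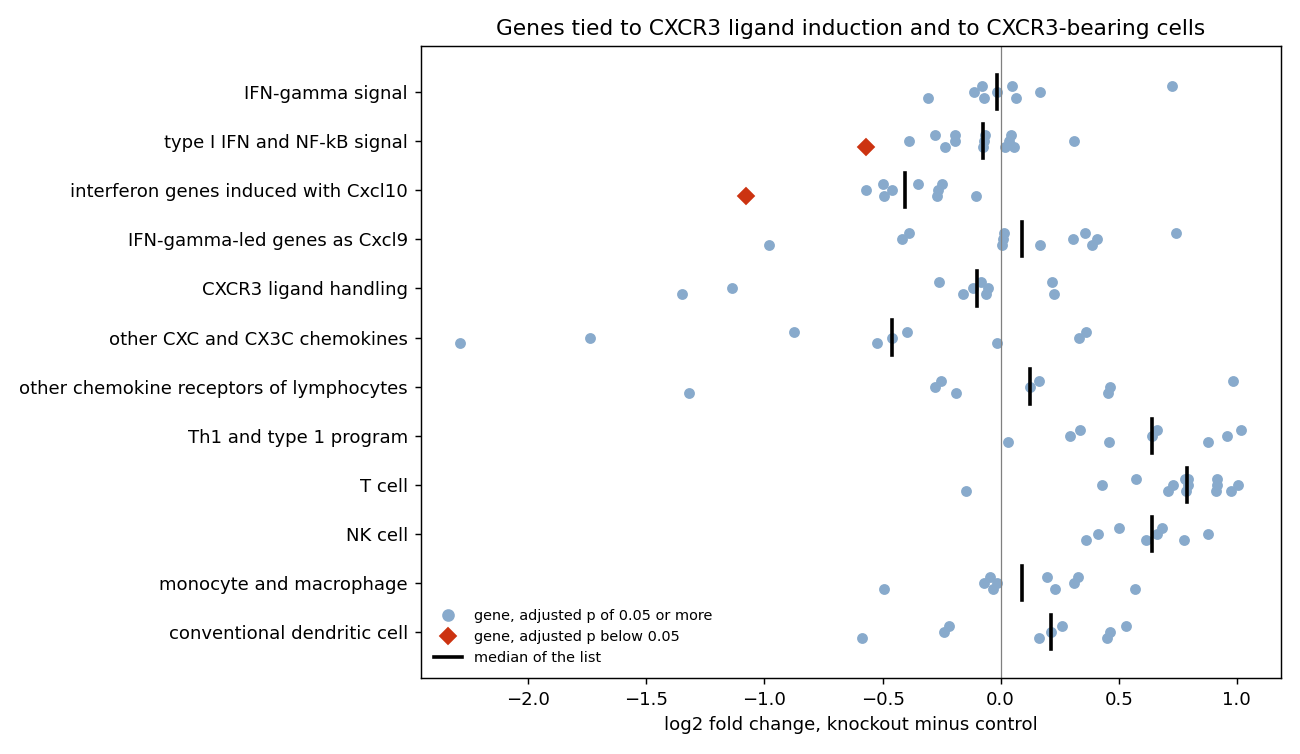
Log2 fold change (knockout minus control) of each tested gene in 12 lists of genes tied to ligand induction or to cells that bear the receptor or make the ligands; black bars mark list medians and red diamonds the genes with an edgeR adjusted p below 0.05. The medians run from -0.46 for other CXC and CX3C chemokines to 0.79 for T cell genes, and the called genes are Irf9 and Ifi44.

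Markers of cells that carry CXCR3 had mostly positive log2 fold changes, as Cxcr3 did (0.26). The levels of Cxcr3 and of the T cell, NK cell and type 1 program lists all overlapped between the groups. Of 14 T cell genes 13 were positive (median 0.79), none passed in edgeR, 8 reached an unadjusted p below 0.05, against 10.6% of all genes higher, and 3 passed in DESeq2, against 6.5%. The coreceptor genes Cd8a and Cd8b1 led it by p, Cd8a at 10.5 ± 1.07 and 21.1 ± 7.65 CPM (edgeR adjusted p = 0.0883). Their groups did not overlap, as held for 29.7% of all genes tested. The coreceptor gene Cd4 was the negative member (-0.15), at 3.39 ± 2.15 and 3.06 ± 0.758 CPM, with overlap. Of 8 NK cell genes all 8 were positive (median 0.64), with none called by edgeR or DESeq2 and 1 at an unadjusted p below 0.05, the inhibitory receptor gene Klrc1 (0.88 ± 0.36, edgeR adjusted p = 0.208). Of 9 genes of the type 1 program all 9 were positive (median 0.64), 3 at an unadjusted p below 0.05. In this list edgeR called none and DESeq2 called 1, Il2rb, an interleukin 2 receptor chain, at 23.2 ± 3.92 and 42.7 ± 13.6 CPM. Tbx21, the gene of the transcription factor T-bet that drives Cxcr3, was at 1.85 ± 0.563 and 3.76 ± 1.79 CPM (1.02 ± 0.41, edgeR adjusted p = 0.207).

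The T cell list averaged 1.70, 2.17 and 2.30 log2 CPM for control tumors 1, 2 and 3, against 3.24, 2.25 and 2.77 for knockout tumors 1, 2 and 3. Cxcr3 and the list were both lowest in control tumor 1, but control tumor 3 matched knockout tumor 1 in Cxcr3 with a lower T cell level. Relative to the T cell list, Cxcr3 stood at -0.58 ± 0.314 in control and -0.96 ± 0.443 log2 units in knockout tumors (SD, n = 3 per group), with overlap. The part of T cell content in the level of Cxcr3 was not tested.

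**Figure D4:**
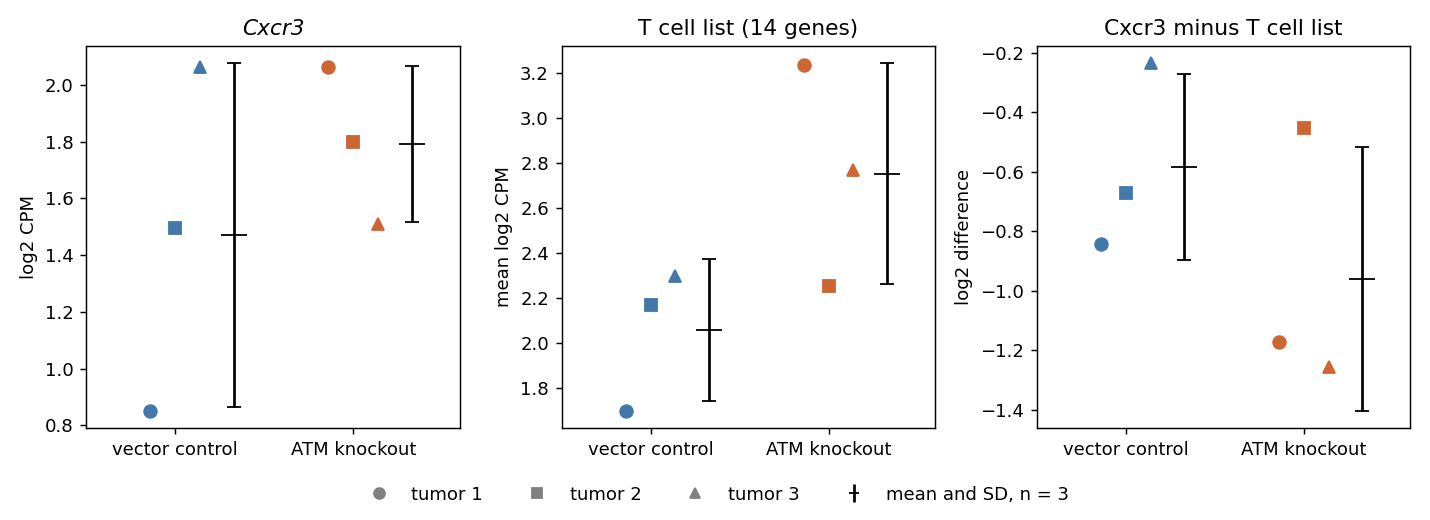
Cxcr3 (log2 CPM), the mean log2 CPM of 14 T cell genes, and their difference (log2) in each tumor, with the group mean and SD (n = 3); axes do not start at 0. The T cell list lies between 1.70 and 2.30 in control and between 2.25 and 3.24 in knockout tumors, and the difference overlaps between the groups.

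Lists of cells that can make the ligands were then compared. Of 10 monocyte and macrophage genes edgeR and DESeq2 called none, none had an unadjusted p below 0.05, and the median was 0.09. Of 9 conventional dendritic cell genes edgeR and DESeq2 called none, and the median was 0.21. Among these 1 was higher at an unadjusted p below 0.05, against 10.6% of all genes. The list of macrophage genes ranged from 5.28 to 6.86 log2 CPM in control and from 6.25 to 6.65 in knockout tumors. Control tumor 1 combined the lowest macrophage level with the highest Cxcl10. Relative to the macrophage list, Cxcl10 was at 2.93, 1.15 and 1.06 log2 units for control tumors 1, 2 and 3, against 0.80, 0.66 and 0.04 for the knockout tumors in that order, with no overlap. Cxcl9 on the same scale overlapped, at 1.01 ± 0.891 and 1.16 ± 0.425 (SD, n = 3 per group). Endothelial genes, another possible source of Cxcl10, were negative in all 6 (median -0.55), with none called by edgeR. DESeq2 called 1 of them, against 8.12% of all genes lower, and 2 had an unadjusted p below 0.05, against 12.3%. The melanoma list had 4 positive and 3 negative members (median 0.02). Of its genes 1 fell in edgeR, against 2.75% of all genes, namely Dct, a pigment enzyme gene (-0.75 ± 0.15, adjusted p = 0.0434). The call of Dct also ended when any tumor other than control tumor 1 was left out (adjusted p 0.0592 to 0.166). The part of these cell types in the ligand levels was not tested.

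Within 500 kb of the ligand cluster 33 other genes are annotated and 14 of them were tested. None was called by edgeR, against 4.96% of all genes, and 2 were by DESeq2, against 14.6%. At an unadjusted p below 0.05 in edgeR there were 3, against 23.0% of all genes. Of the 14, 6 were positive and 8 negative, with a median of -0.10 against -0.09 over 1008 tested genes of chromosome 5. The nearest tested genes on the Cxcl9 side were Sdad1 (log2 fold change -0.24) and Naaa (0.42). Art3, which spans Cxcl10 and Cxcl11, was at 25.4 ± 9.35 and 17.1 ± 4.20 CPM (-0.57 ± 0.31, edgeR adjusted p = 0.346), with overlap. Uso1 (-0.28) and Scarb2 (-0.29), genes of vesicle tethering and of the lysosomal membrane, were the 2 that DESeq2 called. For Cxcr3, the median over 506 tested genes of chromosome X was -0.07.

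**Figure D5:**
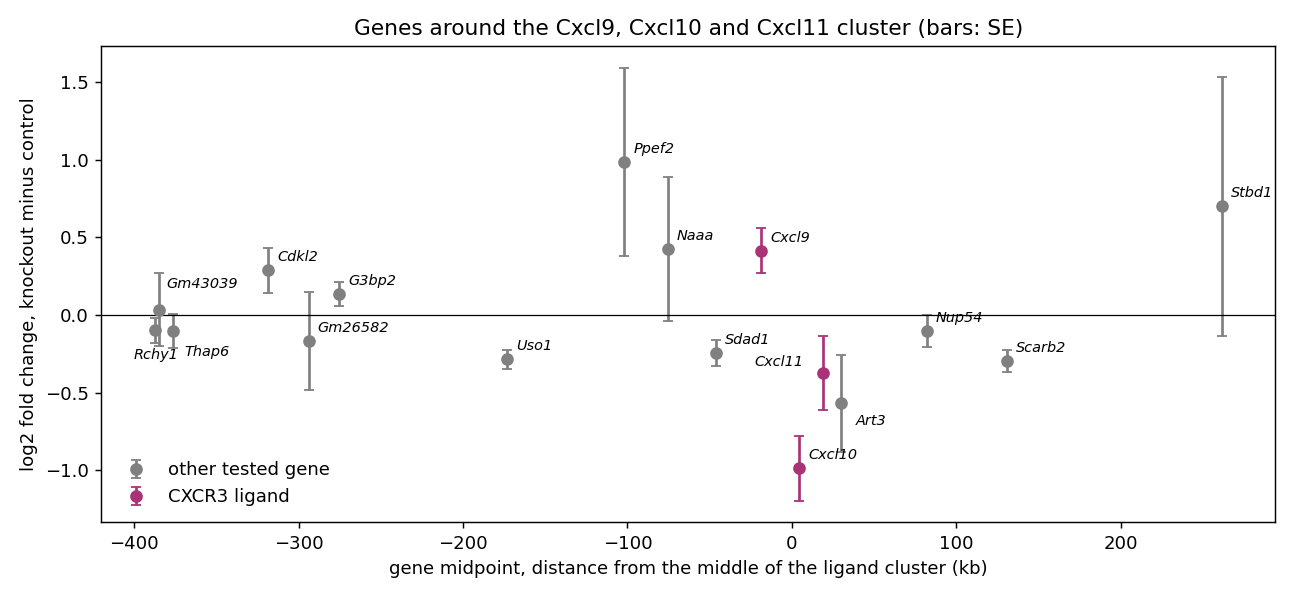
Log2 fold change (knockout minus control, bars SE) of each tested gene against the distance of its midpoint from the middle of the ligand cluster (kb). The 3 ligands, at 0.41, -0.99 and -0.37, stand among neighbors that range from -0.57 to 0.99, the widest bars belonging to weakly expressed genes.

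The genes whose profile over the 6 tumors lay nearest to each member were found by the root-mean-square difference of log2 CPM centered on each gene's mean, among tested genes that averaged at least 5 CPM and were neither predicted genes nor pseudogenes. Cxcl11 and Cxcr3 were themselves too low to be listed. For Cxcl10, which itself deviated by 0.544 from its mean on this measure, they were Mrps24 (0.0704), Dzip1 (0.151), Tmem260 (0.175), Cox5a (0.177) and Pgls (0.178), out of 10761 genes. For Cxcl9, with a deviation of 0.261, they were Cyp4f16 (0.0556), Iffo1, Tmcc2, Zgpat and Capn15 (0.0820). For Cxcr3, with a deviation of 0.417, they were Parvg (0.0774), Olfml2b, Neurl1b, Ms4a4d and Adap1 (0.112). For Cxcl11, with a deviation of 0.246, they were Tbc1d10a (0.0830), Ccdc130, Atp6v1b2, Pheta1 and Zfp1 (0.0923).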

How the data were processed

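Total RNA of 6 tumors was sequenced. The authors deposited the counts of each library as raw gene-level values. The tools STAR, HTSeq, SAMtools, cutadapt and Trim Galore and the builds GRCm38 and mm10 are named without version or role, per the submitters' processing notes. All 55536 gene identifiers matched GENCODE M21, used for coordinates and exon lengths. Reads on no gene (16.7% to 18.2%) and on several genes (1.21% to 1.38%) were left out. Libraries of a group differed beyond sampling noise (chi-square divided by its degrees of freedom was 19.1 to 72.3), and each counted as 1 sample.

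Genes were filtered with filterByExpr (minimum count 10, total 15) and tested with the quasi-likelihood test of edgeR 4.0.16 (TMM, robust, genotype as the term, Benjamini-Hochberg adjustment over 15696 genes, threshold 0.05). The SE is the fold change over the root of F. DESeq2 1.42.0 and limma 3.58.1 were alternatives, with other scalings, filters, dispersions, a replicate block and each tumor left out. List levels are mean log2 CPM with a prior count of 2. The scripts were tested on simulated data. The members and lists were chosen with earlier results of these data known. Named genes are the 4 members, called or lowest-p list genes, up to 5 nearest in profile (mean of at least 5 CPM, no predicted genes or pseudogenes), and genes near the ligand cluster; other list genes are examples chosen after their values were seen. Of 22 lists, those for B and plasma cells, plasmacytoid dendritic cells, neutrophils, adipocytes, erythroid cells and skeletal muscle had no called member in edgeR; the closing section gives them.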

Additional observations from a re-analysis of the deposited data

How the results depend on the processing

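The signs of the log2 fold changes of Cxcl9, Cxcl10, Cxcl11 and Cxcr3 and of the ligand ratios were the same under all alternatives run, though that of Cxcr3 came to 0.00012 without control tumor 1. Log2 fold changes ranged from 0.25 to 0.52 for Cxcl9 and from -1.13 to -0.80 for Cxcl10. DESeq2 called 1 member. Calls over all genes depended on the settings: DESeq2 called 920 higher and 1150 lower, and leaving out 1 tumor gave 0 to 587 higher and 2 to 622 lower, with no call higher without knockout tumor 1 (1110 at an unadjusted p below 0.05). Same-numbered tumors did not deviate together (correlations 0.04, -0.27 and -0.42), and the labels do not pair them. With a replicate block edgeR called 0 higher and 0 lower (1434 and 1570 at an unadjusted p below 0.05), and the log2 fold changes were 0.40 for Cxcl9 and -0.97 for Cxcl10. The cause of these shifts was not tested. Of 616 counts of called list genes recomputed, 587 kept within 1.5 times. Most of these counts were 0 in the main fit, and a 0 that stayed 0 was taken as kept. The list calls of the main fit, Irf9, Ifi44 and Dct, each ended under several settings, among them the replicate block. With a minimum of 1 CPM, 2 of the 5 genes nearest to Cxcl9 and 3 of those nearest to Cxcl10 were shared. Depth limits Cxcl11 and Cxcr3, with at most 100 counts per tumor.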

Other observations

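Other cell types differed between single tumors more than between the groups. Of 5 tested B and plasma cell genes all were negative (median -1.17), with none called by edgeR or DESeq2. Among these 2 had an unadjusted p below 0.05, against 12.3% of all genes lower. The list level ran from 0.00205 to 2.54 log2 CPM in control and from 0.101 to 0.408 in knockout tumors. Neutrophil genes, 4 of 5 negative, had 1 member lower at an unadjusted p below 0.05, against the same 12.3%, and no call by either tool. Of 6 plasmacytoid dendritic cell genes, another cell type that can carry CXCR3, edgeR called none. DESeq2 called 1, the same gene that was lower with an unadjusted p below 0.05, against 8.12% and 12.3% of all genes. This was Bst2, at 429 ± 76.1 and 315 ± 37.6 CPM (SD, n = 3 per group), itself an interferon-stimulated gene, while the more restricted marker Siglech was at 1.503 ± 1.12 and 1.02 ± 0.363 CPM.

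Adipocyte (5 of 5 negative), erythroid (5 of 5 negative), fibroblast (6 of 7 negative) and skeletal muscle genes (7 of 7 positive) had no call by edgeR or DESeq2, and among them 1 adipocyte gene had an unadjusted p below 0.05. Skeletal muscle ranged from 1.54 to 9.35 log2 CPM within the control group. The part of these tissues in the levels of the CXCR3 genes was not tested.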
